A study of Mus musculus with 16 samples.

Results

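The DCSch fraction of embryonic mouse skin, a sorted fraction named for both the dermal condensate and the Schwann cell, was compared with the dermal condensate fraction, DC. The genes described are the rows of the expression table with at least 1 FPKM (fragments per kilobase of transcript, scaled to the size of the library) in at least 2 of the 4 libraries DCSch replicate 1, DCSch replicate 2, DC replicate 1 and DC replicate 2. They numbered 12137 of 23235 rows. Of them, 10731 reached 1 FPKM in all 4 libraries, 722 in 3 and 684 in 2. Among the last were 257 genes that qualified through both DCSch libraries alone and 115 that qualified through both DC libraries alone. At the edge of the rule, Trp53rk was just inside, with 1.24 and 0.936 FPKM in DCSch against 0.887 and 1 FPKM in DC, and Pnma1 was just outside, with 0.2297 and 0.9999 FPKM in DCSch against 0.321 and 1.18 FPKM in DC.

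All groups came from skin of mouse embryos at day 14.5, separated by fluorescence-activated cell sorting, with 2 RNA-seq libraries a fraction. The labels name DCSch, DC, Sch and Fb without spelling them out and give no strain, allele or treatment. From general knowledge of the study they are read here as dermal condensate together with Schwann cells, dermal condensate, Schwann cells and fibroblasts. The sources used here do not name the markers of the sorting gates, and some genes described below may have served as one. No label says that replicates 1 and 2 came from separate embryos or litters, and p-values then measure only the spread between these samples, which may be technical.

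Dermal condensates are clusters of fibroblasts that gather under the epidermal placodes when hair follicles begin to form, and they send and receive Wnt, hedgehog, FGF and BMP signals. Their cells are known to leave the cell cycle as they condense. Schwann cells and their precursors descend from the neural crest, accompany the nerves of the skin, and depend on the transcription factor Sox10 and the receptor Erbb3. The Sch and Fb libraries are given beside DCSch and DC because a gene that is higher in DCSch than in DC may be one of glia, one of fibroblasts or one of dividing cells of either kind.

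FPKM summed to 488734 and 454915 in the DCSch libraries and to 511197 and 455108 in the DC libraries, within a range of 439201 to 606437 over all 16 libraries. Across genes, which are not independent, log2 levels of replicates 1 and 2 had a Pearson's r of 0.957 in DCSch and 0.951 in DC. The labelled cell types were checked against their markers. Glial Sox10, Erbb3 and Foxd3 were all at 69.7 FPKM or more in Sch and at 0.755 FPKM or less in Fb. Fibroblast Dpt and Lox were at 138 FPKM or more in Fb and at 8.58 FPKM or less in DCSch, DC and Sch. Condensate Sox18, Foxd1 and Gal were at 101 FPKM or more in DC and at 12.2 FPKM or less in Sch and Fb. Bmp4, with 540 and 374 FPKM in DC, was also lower in Sch and Fb. Dkk1, set as a condensate marker too, was instead higher in Fb, at 8.43 and 15.3 FPKM against 2.73 and 1.98 FPKM in DC. The markers Sox2, Lum and Col1a1 were left out of this check. DC held low levels of glial RNA too, and more of it in replicate 2 for Fabp7 and Moxd1, whose values are given below.

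More genes were higher than lower in DCSch. A gene was called when limma's moderated test on log2(FPKM + 1), fitted over all 16 libraries, gave a Benjamini-Hochberg adjusted p under 0.05 over the 14171 rows tested and a log2 difference of at least 1 in size. Of the 12137 genes, 620 were higher in DCSch, where the same rule called 4.41% of all rows tested, and 254 were lower, against 1.79% of all rows, or 6.2% in either direction. Called genes had a median log2 difference of 1.69 where higher and -1.43 where lower, and 185 of the higher and 44 of the lower differed by at least 2. Neither direction had a called gene whose DCSch and DC libraries overlapped. With 2 libraries a fraction, a call by this rule leaves little room for overlap, so this adds no support. Of the 620 and 254, 117 and 33 had qualified as members only through the fraction in which they were high. Members that qualified in this way numbered 257 and 115 in all, called or not. The membership rule fixed the direction of their difference, so that direction adds no support.

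These calls rest on a spread shared by all 8 fractions. Fitted on the 4 DCSch and DC libraries alone, limma called 2 genes higher and 0 lower, although 725 and 321 passed an unadjusted p under 0.05 with a log2 difference of at least 1. The 2 were Malat1 and Snora21, both listed at 0 in DC. With a term for the replicate number, 731 genes were higher and 329 lower. That term reads same-numbered libraries as paired, and the calls reported here ignore such pairing. Without DCSch replicate 1, 133 were lower. In the 4 fits that left out a DCSch or DC library, 358 of the higher and 112 of the lower genes kept their call each time.

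The Sch and Fb libraries, which share none with DCSch or DC, divided the called genes into kinds. Of the 620 genes higher in DCSch, 310 (50%) were also higher in Sch than in Fb by the same test and threshold, 32 (5.16%) were higher in Fb than in Sch, and 278 (44.8%) passed neither. Among all 12137 genes the shares were 6.81%, 8.42% and 84.8%, and among all rows tested the test called 6.72% higher in Sch and 8.68% higher in Fb. Of the 254 genes lower in DCSch, 18 (7.09%) were higher in Sch, 69 (27.2%) were higher in Fb and 167 (65.7%) passed neither. Read the other way, 37.5% of the genes higher in Sch than in Fb were higher in DCSch than in DC, against 3.13% of those higher in Fb. Without DCSch replicate 1, the 32 and 278 became 20 and 182, and the 18, 69 and 167 became 6, 26 and 101. Without DC replicate 1, the 32 became 21 and the 69 became 43. With a pseudocount of 0.1, the 167 became 105, and with the replicate term the 32 became 50 and the 18 became 29.

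**Figure D1:**
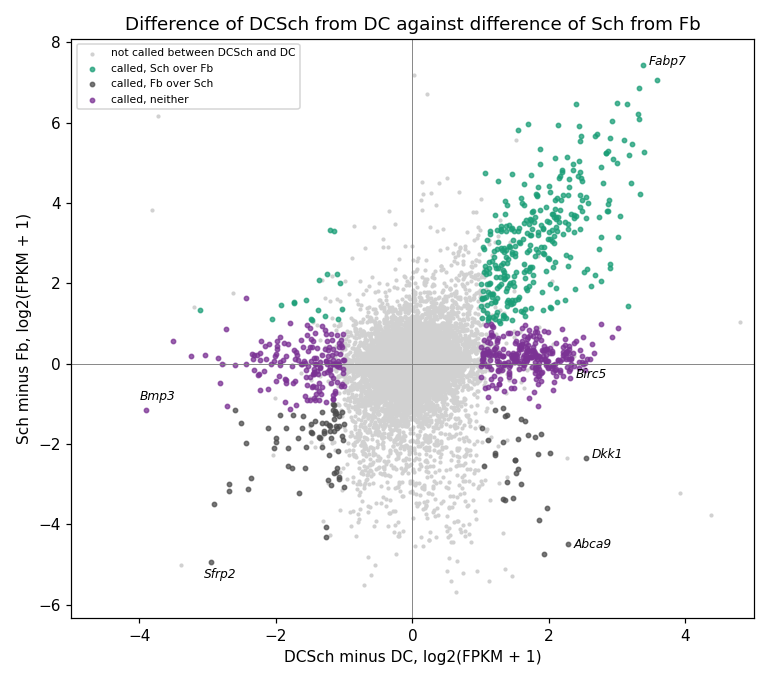
Each point is 1 of the 12137 genes, with its difference between DCSch and DC on the horizontal axis and its difference between Sch and Fb on the vertical axis, both in log2(FPKM + 1). Coloured points passed the test between DCSch and DC, with the colour giving the call between Sch and Fb. The 310 genes higher in DCSch and in Sch spread upward to the right, Fabp7 among them. The 278 that passed neither were not called between Sch and Fb, which is not the same as equal levels. Birc5, among them, had a difference of -0.36 between Sch and Fb. Malat1 and Snora21 lie beyond the horizontal limit of 5.

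Most genes of a glial list were higher in DCSch. Of 30 tested genes on a list of Schwann cell and glial precursor genes, 20 were higher in DCSch, 0 were lower, and the median log2 difference was 2.17, where the median over all rows tested was 0. All 20 were also higher in Sch than in Fb, which the choice of glial genes largely fixed in advance. Like the other lists used here, that of mitosis included, it was drawn up with earlier results of these data known. Counts over these lists are no independent evidence. Fabp7, a fatty acid binding protein of Schwann cell precursors and radial glia, lies at chr10:57784923-57788450 (mm10, plus strand). It had 384 and 502 FPKM in DCSch, 24.0 and 70.1 FPKM in DC, 1091 and 1443 FPKM in Sch, and 4.004 and 9.57 FPKM in Fb. Both DCSch libraries stood above both DC libraries and below both Sch libraries, with a log2 difference from DC of 3.38 (SE 0.56, adjusted p = 0.00255). Fabp7 was higher in DC replicate 2 than in DC replicate 1, and its level in Fb was the lowest of the 4 fractions.

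Sox10, the transcription factor that specifies peripheral glia, had 61.4 and 26.6 FPKM in DCSch, 3.94 and 4.50 FPKM in DC, 188 and 92.2 FPKM in Sch, and 0.442 and 0.4997 FPKM in Fb. Its log2 difference between DCSch and DC was 2.99 (SE 0.39, adjusted p = 0.000528). Erbb3, the neuregulin receptor through which axons keep Schwann cells alive, had 30.0 and 23.3 FPKM in DCSch against 2.29 and 3.11 FPKM in DC, with 91.1 and 69.7 FPKM in Sch. In both genes the DCSch libraries lay between DC and Sch with no overlap on either side. Erbb3 was the 1 gene called of 6 tested on a neuregulin and ErbB list, which had a median log2 difference of 0.16. Over all rows tested, 6.2% were called.

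By the rule of the 12 largest increases with at least 10 FPKM in DCSch, and setting aside Malat1 and Snora21, the leading genes included Gpr17, Igsf9b, Fabp7, Adam23, Moxd1, Foxd3, L1cam, Lypd6 and Ndst3. All of these were higher in Sch than in Fb, and the smallest log2 difference between DCSch and DC among them was 3.18, for Ndst3. Gpr17, a G protein coupled receptor known from oligodendrocyte precursors, had 67.6 and 50.5 FPKM in DCSch, 3.38 and 4.57 FPKM in DC, 209 and 175 FPKM in Sch, and 0.289 and 0.627 FPKM in Fb. In the table its locus also spans Lims2, so part of the value may come from that gene. Foxd3, a neural crest transcription factor, had 35.2 and 23.3 FPKM in DCSch against 2.23 and 1.77 FPKM in DC, with 114 and 78.9 FPKM in Sch. L1cam, an adhesion protein of axons and glia, had 32.2 and 25.6 FPKM in DCSch against 1.53 and 3.003 FPKM in DC. Moxd1, a monooxygenase-like protein of neural crest cells, had 75.8 and 92.5 FPKM in DCSch against 3.74 and 14.2 FPKM in DC, and again DC replicate 2 was the higher of the DC libraries.

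Lists of neural crest factors, adhesion genes and neuronal genes each held genes that rose, where 4.41% of all rows did, beside members that were not called. Of 11 neural crest transcription factors tested, 6 were higher in DCSch, namely Foxd3, Pax3, Sox10, Sox5, Sox8 and Tfap2b. Pax3 had 11.0 and 11.3 FPKM in DCSch against 0.817 and 1.79 FPKM in DC. Sox9 was the 1 factor that fell, with 8.44 and 14.4 FPKM in DCSch, 34.4 and 33.9 FPKM in DC, 3.85 and 7.52 FPKM in Sch, and 2.504 and 2.096 FPKM in Fb, so its level was highest in DC (log2 difference -1.54, SE 0.29, adjusted p = 0.00613; -1.19 and adjusted p = 0.0826 without DCSch replicate 1). Of 19 adhesion genes, 5 rose, namely Cdh19, Cdh6, Itga4, Itga6 and L1cam, of which Itga4 and Itga6 lost the call without DCSch replicate 2 or DC replicate 1, and Itga6 also without DCSch replicate 1. Cdh6, a cadherin of emigrating neural crest, had 85.1 and 80.8 FPKM in DCSch against 6.61 and 12.6 FPKM in DC. Of 10 neuronal genes tested, 3 rose: Gap43, Syt1 and Elavl4, the last not without DCSch replicate 2 or DC replicate 1. Gap43, a growth cone protein that Schwann cell precursors also make, had 185 and 149 FPKM in DCSch, 33.7 and 29.3 FPKM in DC, and 505 and 431 FPKM in Sch.

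Not every gene on the glial list followed. Ngfr, the low-affinity neurotrophin receptor, had 172 and 135 FPKM in DCSch, 444 and 208 FPKM in DC, and 218 and 149 FPKM in Sch, and its log2 difference of -0.99 missed the threshold (adjusted p = 0.192), although without DC replicate 2 it was called lower (-1.54, adjusted p = 0.0465). By its mean, Ngfr was highest in DC among the 4 fractions, although DC replicate 2 lay between the Sch libraries. Pmp22, a myelin protein gene also active in mesenchyme, had 131 and 132 FPKM in DCSch against 129 and 112 FPKM in DC, and it was highest in Fb, at 281 and 282 FPKM. The 10 glial genes that were not called were spread over a range of levels and included these 2.

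**Figure D2:**
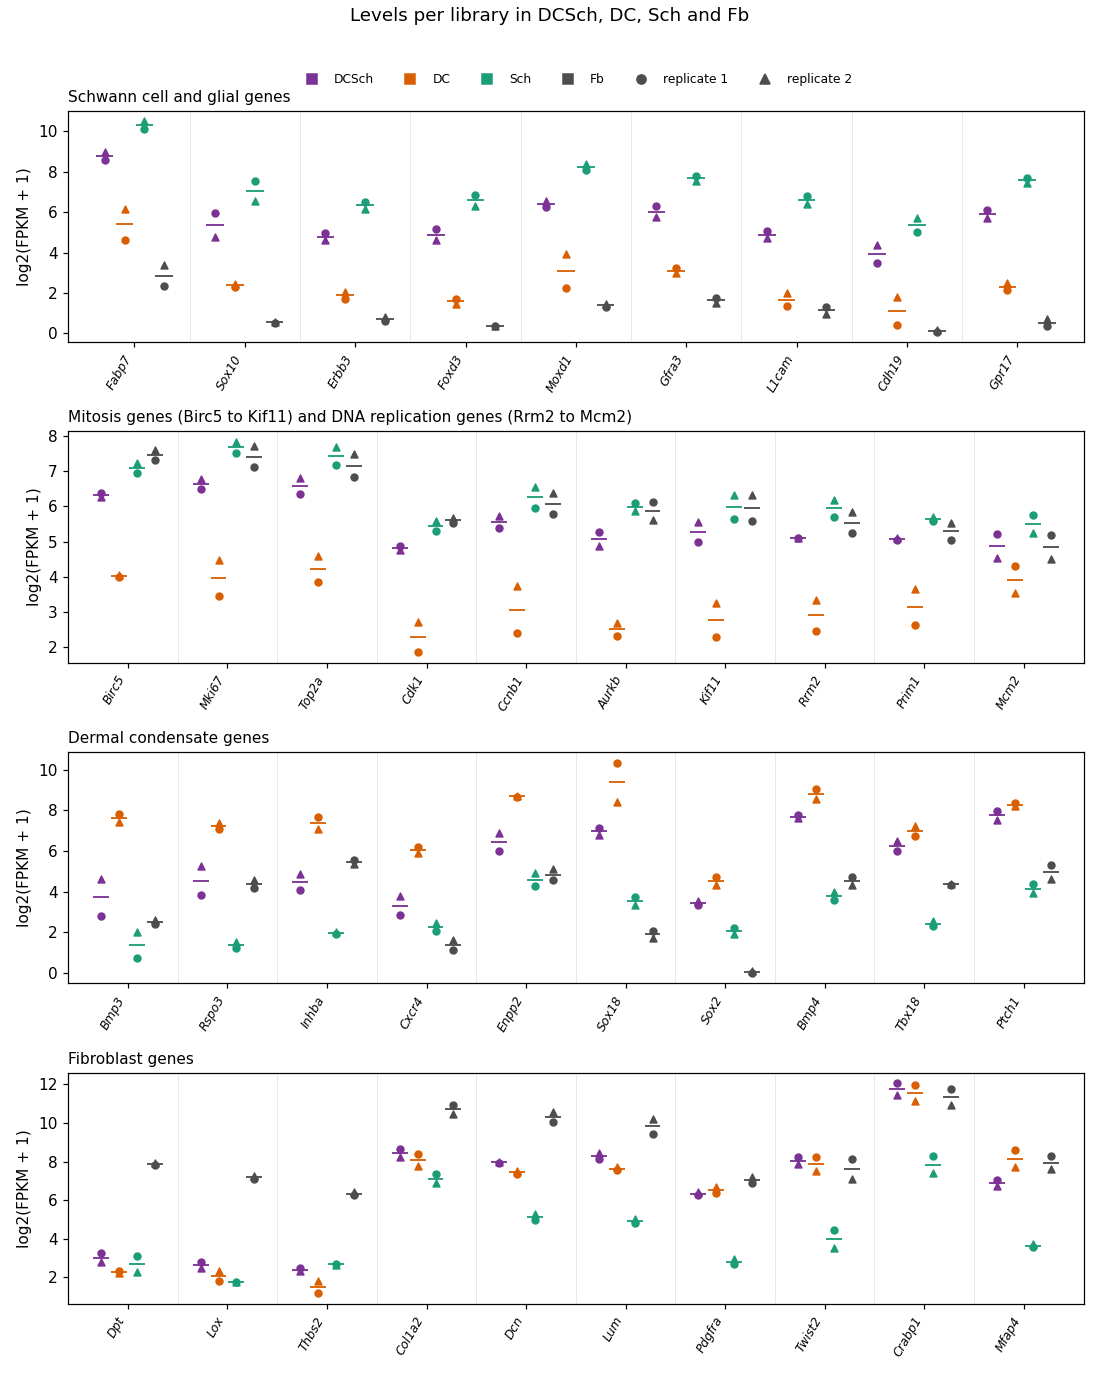
Levels of selected list genes as log2(FPKM + 1) in DCSch, DC, Sch and Fb, in that order within each gene. Circles are replicate 1, triangles are replicate 2 and bars are the mean of the 2 libraries. Glial genes lie between DC and Sch in DCSch, mitosis genes are lowest in DC and lie below Sch and Fb in DCSch, condensate genes are lower in DCSch than in DC by differing amounts, and most fibroblast genes lie at like heights in DCSch and DC.

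Genes of mitosis were also higher in DCSch. All 34 tested genes of a mitosis list were higher, against 4.41% of all rows, and the median log2 difference was 2.28. None of the 34 differed between Sch and Fb by the same rule. FPKM summed over the list came to 1153 and 1218 in DCSch, 186 and 273 in DC, 1930 and 2362 in Sch, and 1819 and 2215 in Fb. DC stood alone at the low end, its replicate 2 above its replicate 1, and DCSch lay between DC and both of the other fractions. At least 28 of the 34 kept the call in each fit that left out a DCSch or DC library.

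Birc5, which codes for survivin, a subunit of the chromosomal passenger complex, lies at chr11:117849237-117855743 (mm10, plus strand). It had 82.8 and 76.2 FPKM in DCSch, 14.9 and 15.6 FPKM in DC, 121 and 149 FPKM in Sch, and 157 and 191 FPKM in Fb. The DCSch libraries stood above DC and below both of the other fractions, with a log2 difference from DC of 2.31 (SE 0.17, adjusted p = 2.55e-05). Cdk1, the kinase that drives entry into mitosis, had 28.5 and 26.0 FPKM in DCSch, 2.64 and 5.58 FPKM in DC, 38.7 and 47.3 FPKM in Sch, and 45.3 and 50.1 FPKM in Fb. Mki67, the common marker of cycling cells, had 89.3 and 108 FPKM in DCSch against 9.98 and 21.2 FPKM in DC, and Top2a, the topoisomerase that untangles replicated chromosomes, had 80.8 and 110 FPKM in DCSch against 13.3 and 23.1 FPKM in DC. Racgap1, a cytokinesis gene, had the smallest difference of the list, at 1.10 on the log2 scale, with 41.2 and 42.9 FPKM in DCSch against 18.8 and 19.4 FPKM in DC.

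The promoters of the 34 mitosis genes were read for the letters of a pair of motifs on both strands. TTTGAA is the core of the cell cycle genes homology region, an element known to be read by the DREAM and B-Myb-MuvB complexes, and CCAAT is the core of NF-Y sites. Windows from 250 bases before to 50 bases after the start site came from RefSeq (GRCm38.p6) and covered 28 of the 34 genes in 29 windows. The 4 windows below are those of Birc5, the list gene described above in full, and of Ccnb2 (chr9:70421505-70421804, minus strand), Cdc20 (chr4:118437294-118437593, minus strand) and Cdk1 (chr10:69352863-69353162, minus strand), which carry both motifs; that of Birc5 is chr11:117848987-117849286, plus strand. Each is printed 5′ to 3′ along its gene, in lower case, with matches to either motif, read on either strand, in capitals.
Birc5: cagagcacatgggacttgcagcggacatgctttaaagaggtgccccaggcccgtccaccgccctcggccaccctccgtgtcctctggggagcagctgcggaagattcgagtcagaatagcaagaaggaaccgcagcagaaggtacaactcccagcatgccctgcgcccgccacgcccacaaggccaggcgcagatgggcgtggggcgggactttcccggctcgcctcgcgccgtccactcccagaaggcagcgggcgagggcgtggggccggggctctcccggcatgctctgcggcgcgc
Ccnb2: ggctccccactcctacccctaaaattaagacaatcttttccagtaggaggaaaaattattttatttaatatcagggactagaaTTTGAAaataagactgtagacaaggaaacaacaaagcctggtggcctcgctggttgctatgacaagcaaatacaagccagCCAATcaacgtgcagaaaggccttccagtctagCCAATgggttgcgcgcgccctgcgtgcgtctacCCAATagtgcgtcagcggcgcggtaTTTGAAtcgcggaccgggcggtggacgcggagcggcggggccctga
Cdc20: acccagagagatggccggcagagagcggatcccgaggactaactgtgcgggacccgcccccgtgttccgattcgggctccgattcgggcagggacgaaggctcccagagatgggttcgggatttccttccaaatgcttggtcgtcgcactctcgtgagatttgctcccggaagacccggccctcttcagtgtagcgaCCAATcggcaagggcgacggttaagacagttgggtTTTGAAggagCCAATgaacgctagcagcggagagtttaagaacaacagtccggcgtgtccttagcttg
Cdk1: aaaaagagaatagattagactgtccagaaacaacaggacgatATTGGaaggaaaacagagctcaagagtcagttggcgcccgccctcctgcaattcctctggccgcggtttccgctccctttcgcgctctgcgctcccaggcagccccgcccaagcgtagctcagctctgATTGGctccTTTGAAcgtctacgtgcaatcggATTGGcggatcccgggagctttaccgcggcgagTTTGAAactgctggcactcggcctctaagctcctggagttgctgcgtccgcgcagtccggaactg

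The window of Ccnb2, which codes for cyclin B2, held 3 CCAAT matches and 2 TTTGAA matches. The window of Cdc20, an activator of the anaphase-promoting complex, held 2 CCAAT matches and 1 TTTGAA match, and that of Cdk1 held 3 matches to CCAAT, all read on the opposite strand, and 2 to TTTGAA. The Birc5 window held neither string of letters. Over the mitosis list, 79.3% of windows held TTTGAA and 72.4% held both motifs, while 17.9% and 6.95% of all 32851 windows in the table did. Among windows of all members, 11.6% held TTTGAA. The shares of the mitosis list follow from its choice of genes and do not depend on the levels in DCSch or DC. In the DNA replication list, described next, the shares were 9.38% and 6.25%. Among windows of the 278 genes that were higher in DCSch and passed neither test between Sch and Fb, 23.6% held both, and 18.3% did once the mitosis and DNA replication lists were left out. The share was 4.53% for genes higher in DCSch and in Sch, 3.56% for genes lower in DCSch, and 4.73% for all members. These are letter matches in a fixed window and not sites shown to be bound, and their part in the difference between DCSch and DC was not tested.

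Genes of DNA replication had smaller differences than those of mitosis. Of 32 tested, 22 were higher in DCSch and 0 were lower, with a median log2 difference of 1.36, and the 22 became 13 without DCSch replicate 1. Rrm2, a subunit of ribonucleotide reductase, had 33.6 and 33.6 FPKM in DCSch, 4.53 and 9.19 FPKM in DC, 51.1 and 72.2 FPKM in Sch, and 36.8 and 55.8 FPKM in Fb. Prim1, a DNA primase subunit, had 32.2 and 33.2 FPKM in DCSch against 5.17 and 11.6 FPKM in DC. Subunits of the replicative helicase were split. Mcm3 and Mcm4 were called, at log2 differences of 1.51 and 1.48, while Mcm2 had 36.5 and 22.0 FPKM in DCSch against 18.9 and 10.6 FPKM in DC (0.95, adjusted p = 0.172) and Mcm6 had 64.6 and 67.5 FPKM against 39.8 and 41.0 FPKM (0.70, adjusted p = 0.0163), the last past the p threshold but not past the required size.

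Of 11 tested CDK inhibitors and G1 cyclins, 1 fell, Cdkn1c, and 1 rose, Cdkn2c, where 1.79% and 4.41% of all rows did. Cdkn1c, which codes for the inhibitor p57, had 451 and 562 FPKM in DCSch, 1910 and 1154 FPKM in DC, 110 and 79.0 FPKM in Sch, and 507 and 310 FPKM in Fb. It was lower in DCSch than in DC (log2 difference -1.56, SE 0.35, adjusted p = 0.0155), but without DCSch replicate 1 the adjusted p was 0.133 and without DC replicate 1 it was 0.153. Cdkn1a, which codes for p21, had 235 and 229 FPKM in DCSch, 703 and 367 FPKM in DC, and at most 17.5 FPKM in Sch and Fb. Its libraries did not overlap between DCSch and DC, yet the difference of -1.13 was not called (adjusted p = 0.0985) except with the replicate term (adjusted p = 0.0241) or without DC replicate 2 (adjusted p = 0.0374). Cdkn2c, an inhibitor of the cyclin D kinases, was higher in DCSch, with 9.33 and 10.02 FPKM against 2.12 and 2.19 FPKM in DC, and was at 19.6 FPKM or more in Sch and Fb. Ccnd1, a D cyclin, had 218 and 204 FPKM in DCSch against 149 and 132 FPKM in DC and was not called (0.59, adjusted p = 0.268).

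Most called genes of the condensate itself were lower in DCSch. Of 28 tested genes on a dermal condensate list, 13 were lower, against 1.79% of all rows, 2 were higher, namely Dkk1 and Fst, 13 were not called, and the median log2 difference was -1.15. The list was drawn up with earlier results of these data known and is no independent evidence of direction. With the replicate term 18 were lower. Bmp3, a BMP family ligand at chr5:98854439-98880960 (mm10, plus strand), had the largest fall of all genes considered by the rule for leading genes. It had 6.08 and 23.8 FPKM in DCSch, 224 and 173 FPKM in DC, 0.661 and 3.02 FPKM in Sch, and 4.36 and 5.04 FPKM in Fb (log2 difference -3.90, SE 0.53, adjusted p = 0.000703). Both DCSch libraries were far below DC, and replicate 1 was near the level of Fb.

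Other genes of the condensate list fell by less than Bmp3. Inhba, the activin A subunit, had 15.9 and 28.3 FPKM in DCSch, 205 and 134 FPKM in DC, 2.77 and 2.99 FPKM in Sch, and 45.4 and 39.6 FPKM in Fb, so DCSch was below Fb as well. Rspo3, a secreted Wnt amplifier, had 13.4 and 37.1 FPKM in DCSch against 133 and 168 FPKM in DC. Cxcr4, a chemokine receptor, had 6.14 and 12.7 FPKM in DCSch against 72.7 and 58.0 FPKM in DC. In all 3, DCSch replicate 1 was lower than DCSch replicate 2 and neither reached the DC range. Enpp2, the enzyme autotaxin, had 63.4 and 119 FPKM in DCSch against 408 and 420 FPKM in DC, and Alx4, a homeobox factor, had 3.88 and 3.18 FPKM in DCSch against 23.8 and 12.7 FPKM in DC, where the table's Alx4 locus also touches Ext2.

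Calls of 3 further condensate markers depended on single libraries. Sox2, a transcription factor of condensates in part of the follicles, had 9.27 and 10.8 FPKM in DCSch, 25.1 and 19.4 FPKM in DC, and 3.57 and 2.73 FPKM in Sch (log2 difference -1.07, SE 0.19, adjusted p = 0.00395). Leaving out DCSch replicate 1 gave -0.97 and leaving out DC replicate 1 gave -0.89, both under the required size. The Sox2 locus in the table spans 117613 bases, so the Sox2 values may carry fragments of other transcripts there. Sox18, a SoxF factor of condensate and vessel, had 140 and 110 FPKM in DCSch against 1313 and 347 FPKM in DC. Its DC libraries lay far apart, and its call (log2 difference -2.44, adjusted p = 0.0414) was lost without DCSch replicate 1, DCSch replicate 2 or DC replicate 1, at adjusted p of 0.142, 0.195 and 0.345. Bmp4, the ligand through which condensates signal to epithelium, had 216 and 194 FPKM in DCSch against 540 and 374 FPKM in DC (-1.13, adjusted p = 0.0162), and leaving out the same 3 libraries gave adjusted p of 0.0730, 0.110 and 0.156.

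Of the remaining called genes of the list, Smoc1, a secreted matricellular protein, had 35.7 and 36.8 FPKM in DCSch against 166 and 110 FPKM in DC (-1.87, adjusted p = 0.00092), and Trim9, a ubiquitin ligase, had 30.3 and 37.3 FPKM in DCSch against 94.8 and 99.4 FPKM in DC (-1.50, adjusted p = 0.000731). Prdm1, a transcriptional repressor, had 77.5 and 139 FPKM in DCSch against 243 and 333 FPKM in DC (-1.45, adjusted p = 0.0211), with adjusted p of 0.228 without DCSch replicate 1 and 0.140 without DC replicate 2. The libraries of DCSch and DC did not overlap in these 3 genes.

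Several markers did not pass the test. Foxd1, a forkhead factor, had 79.2 and 58.9 FPKM in DCSch against 250 and 101 FPKM in DC (-1.21, adjusted p = 0.158; 0.0268 with the replicate term and 0.0325 without DC replicate 2). Gal, a neuropeptide, had 78.9 and 90.2 FPKM in DCSch against 269 and 137 FPKM in DC (-1.18, adjusted p = 0.106; 0.0418 without DC replicate 2). The hedgehog targets Ptch1 and Gli1 and the Wnt factor Lef1 differed by less. Ptch1 had 252 and 185 FPKM in DCSch, 329 and 294 FPKM in DC, and at most 19.5 FPKM in Sch (-0.53, SE 0.31, adjusted p = 0.509). Lef1 had 109 and 99.6 FPKM in DCSch against 157 and 121 FPKM in DC (-0.40, SE 0.19, adjusted p = 0.323), and Tbx18, a T-box factor of condensate and dermal mesenchyme, had 62.8 and 89.8 FPKM in DCSch against 106 and 150 FPKM in DC (-0.74, SE 0.29, adjusted p = 0.189).

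By the rule for the 12 largest decreases, the genes after Bmp3 were Dll1, Pdlim3, Mir1897, Syt6, Sfrp2, Inhba, Apod, Cbln4, Nrp2, Cxcr4 and Necab1. Dll1, a Notch ligand, had 2.58 and 8.71 FPKM in DCSch, 75.3 and 58.0 FPKM in DC, 1.10 and 0.816 FPKM in Sch, and 0.236 and 0.427 FPKM in Fb (log2 difference -3.51, SE 0.38, adjusted p = 0.000215). Pdlim3, a muscle-type actin-associated protein, had 5.15 and 6.03 FPKM in DCSch against 76.1 and 49.2 FPKM in DC and stayed under 1 FPKM in Sch and Fb. Sfrp2, a secreted Wnt inhibitor, had 9.14 and 7.27 FPKM in DCSch, 92.3 and 52.6 FPKM in DC, 2.24 and 2.28 FPKM in Sch, and 127 and 75.5 FPKM in Fb, so it was a gene of both DC and Fb that was low in DCSch. Nrp2, a semaphorin and VEGF co-receptor, had 40.0 and 81.9 FPKM in DCSch against 416 and 386 FPKM in DC. The row Mir1897 spans 117613 bases that include Sox2, so its fall may carry fragments of other transcripts of that locus.

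Most genes of a fibroblast list were not called between DCSch and DC. The list was not limited to genes that DC shares with Fb. Of 24 tested genes on the fibroblast list, limma called 0 higher. At an unadjusted p under 0.05 with the required size of difference, 0 were higher too. Limma called 1 lower, and the median log2 difference was 0.28. Twist2, a dermal transcription factor, had 298 and 235 FPKM in DCSch, 303 and 185 FPKM in DC, 20.8 and 10.6 FPKM in Sch, and 277 and 138 FPKM in Fb (0.16, SE 0.47, adjusted p = 0.985). Pdgfra, a receptor of mesenchyme, had 75.5 and 84.2 FPKM in DCSch against 81.7 and 101 FPKM in DC, with 5.54 and 6.70 FPKM in Sch (-0.19, SE 0.23, adjusted p = 0.877). Crabp1, a retinoic acid binding protein, had 4284 and 2807 FPKM in DCSch against 3974 and 2290 FPKM in DC. In these 3 genes the libraries of DCSch and DC overlapped, although Sch was far lower. Mfap4, a microfibril protein, was the gene that fell, with 134 and 106 FPKM in DCSch against 393 and 208 FPKM in DC (-1.26, adjusted p = 0.0304), and adjusted p was 0.0841, 0.192 and 0.264 without DCSch replicate 1, DCSch replicate 2 and DC replicate 1.

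Genes that mark Fb against both condensate and glia were low in DCSch but not at the floor. Dpt, a dermal matrix protein, had 8.58 and 5.87 FPKM in DCSch, 4.09 and 3.64 FPKM in DC, 7.54 and 3.89 FPKM in Sch, and 230 and 245 FPKM in Fb, and its difference between DCSch and DC was not called (0.74, SE 0.30, adjusted p = 0.213). Lox, a collagen crosslinking enzyme, had 6.00 and 4.60 FPKM in DCSch against 2.52 and 4.09 FPKM in DC and was not called either (0.57, SE 0.24, adjusted p = 0.257). After the values were seen, 42 genes were taken that had a mean of at least 20 FPKM in Fb and under 5 FPKM in both DC and Sch. As a percentage of the Fb mean, the median gene of these stood at 13.2 and 7.99 in DCSch, 3.71 and 4.03 in DC, and 4.34 and 3.14 in Sch. In Neg and Mc, other sorted fractions that the choice did not cap, it stood at 14.6 and 14.6 and at 6.07 and 4.69. The DCSch level was thus not particular to DCSch. The choice capped DC and Sch and not DCSch, so these medians are a description only. In bulk RNA, fewer cells of a type and less RNA per cell cannot be told apart.

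Of the 620 genes higher in DCSch, 32 were higher in Fb than in Sch. The 6 with the most FPKM in DCSch, picked after the values were seen, were Map1b, Epb4.1l2, Igsf10, Cav1, Cyr61 and Thbd. Cav1, the membrane coat protein caveolin, had 39.1 and 49.8 FPKM in DCSch, 6.71 and 21.1 FPKM in DC, 19.9 and 23.7 FPKM in Sch, and 56.2 and 112 FPKM in Fb. Cyr61, a matricellular protein, had 48.4 and 26.1 FPKM in DCSch against 16.9 and 10.5 FPKM in DC, with 237 and 138 FPKM in Fb. Among these 6, calls were lost on leaving out 1 library for Cav1 and Igsf10 (DCSch replicate 1, DCSch replicate 2 or DC replicate 1, down to 1.03 and 0.93), Cyr61 and Thbd (DCSch replicate 1 or DC replicate 2, down to 0.92 and 1.16) and Map1b (DCSch replicate 2 or DC replicate 1, down to 0.74). Epb4.1l2, a cytoskeletal adaptor, kept its call throughout, with 69.0 and 64.7 FPKM in DCSch against 23.7 and 28.8 FPKM in DC.

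A few genes were higher in DCSch than in both DC and Sch, outside the range of the fractions that its name joins. Requiring a log2 difference of at least 1 from each, with the larger p-value adjusted over all rows by limma, 16 genes were above both, 0.113% of rows tested, and 0 were below both, although 26 and 5 passed unadjusted. All 16 were also higher in Fb than in Sch. The choice of these genes required Sch to lie below DCSch, and the same Sch libraries entered this comparison. The count is thus a description only. The count of 16 was 4 with a pseudocount of 0.1 in place of 1, 5 without DCSch replicate 1, 10 without DCSch replicate 2, 10 without DC replicate 1, 0 when only the 6 libraries concerned were fitted, and 25 with the replicate term, which also placed 4 below both.

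Dkk1, a secreted inhibitor of Wnt signalling at chr19:30545885-30549496 (mm10, minus strand), led these genes. It had 23.1 and 14.6 FPKM in DCSch, 2.73 and 1.98 FPKM in DC, 1.73 and 1.15 FPKM in Sch, and 8.43 and 15.3 FPKM in Fb. DCSch was above DC by 2.54 on the log2 scale (SE 0.31, adjusted p = 0.000406) and above Sch by more than that, and its range overlapped that of Fb. Dkk1 kept its call against DC in each fit that left out a library, and it was 1 of the 2 genes of the condensate list that rose, where 13 of 28 fell. Neg and Mc, a pair of other sorted fractions, averaged 0.800 and 0.717 FPKM.

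Most of the other genes above both had higher means in Fb than in DCSch. Abca9 and Abca8a are neighbouring lipid transporter genes on chromosome 11. Abca9 had 10.9 and 7.93 FPKM in DCSch, 1.12 and 1.11 FPKM in DC, 1.12 and 1.44 FPKM in Sch, and 42.9 and 57.3 FPKM in Fb, and Abca8a had 10.4 and 8.87 FPKM in DCSch against 1.54 and 1.88 FPKM in DC, with 22.7 and 26.7 FPKM in Fb. In both genes the DCSch libraries exceeded every DC and Sch library and were below both Fb libraries. Thbd, the endothelial and mesenchymal thrombin receptor thrombomodulin, was instead highest in DCSch, with 37.2 and 29.7 FPKM against 14.3 and 8.00 FPKM in DC, 4.47 and 2.49 FPKM in Sch, and 25.6 and 26.0 FPKM in Fb.

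**Figure D3:**
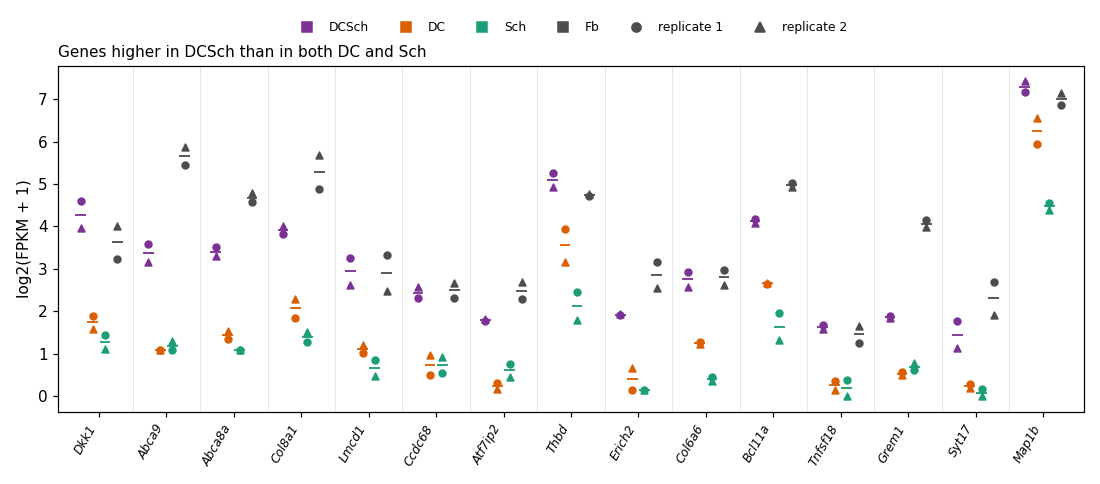
15 of the 16 genes higher in DCSch than in both DC and Sch, as log2(FPKM + 1) in DCSch, DC, Sch and Fb, in that order within each gene. Circles are replicate 1, triangles replicate 2 and bars the mean of both. Every gene is lower in Sch than in DCSch, and Fb has the higher mean for most, with Dkk1, Lmcd1, Thbd, Tnfsf18 and Map1b the exceptions by their means.

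Called genes of signalling pathways pointed in both directions. Among 16 Notch genes 5 were called, among 19 BMP and activin genes 6 and among 14 Wnt inhibitors 4, where 6.2% of all rows were called. Of 14 Wnt inhibitors tested, Dkk1 and Dkk2 rose and Frzb and Sfrp2 fell. Dkk2 had 19.8 and 22.3 FPKM in DCSch, 1.64 and 3.86 FPKM in DC, 60.9 and 64.5 FPKM in Sch, and 12.96 and 18.7 FPKM in Fb, so unlike Dkk1 it lay below Sch. Frzb, a decoy receptor for Wnt, had 5.96 and 10.6 FPKM in DCSch against 45.0 and 44.7 FPKM in DC and was at 1.56 FPKM or less in Sch and Fb. Of 16 Wnt ligands and R-spondins, Wnt4 rose, with 18.7 and 14.3 FPKM in DCSch against 4.86 and 4.55 FPKM in DC, and Rspo3 fell. Of 12 Wnt target genes, limma called 0, 0 also at an unadjusted p under 0.05 with the required size, and the list's median log2 difference was -0.01.

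In the BMP and activin list, 3 of 19 rose and 3 fell, and the 3 that rose became 1 without DCSch replicate 2 or DC replicate 1. The ligands Bmp3, Bmp4 and Inhba fell. The antagonists Fst and Grem1 and the target Id2 rose. Fst, the activin-binding protein follistatin, had 33.8 and 36.9 FPKM in DCSch, 11.1 and 11.4 FPKM in DC, 48.3 and 68.9 FPKM in Sch, and 3.77 and 5.76 FPKM in Fb (1.57, SE 0.32, adjusted p = 0.00853), with adjusted p of 0.0594 without DCSch replicate 2 and 0.0559 without DC replicate 1. The call of Id2 was lost at adjusted p of 0.0559, 0.0558 and 0.0755 without DCSch replicate 1, DCSch replicate 2 and DC replicate 1. Bmp7 was not called, with 103 and 71.7 FPKM in DCSch against 285 and 134 FPKM in DC (-1.18, adjusted p = 0.229; 0.00335 with the replicate term).

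Of 16 Notch pathway genes, 4 fell and 1 rose. The target Hey1 had 5.87 and 11.2 FPKM in DCSch against 42.9 and 29.2 FPKM in DC, and the target Hes5 had 0.335 and 0.675 FPKM against 12.1 and 4.06 FPKM, with 0 listed in Sch and Fb. Heyl, another target, had 35.6 and 34.0 FPKM in DCSch, 106 and 57.6 FPKM in DC, 104 and 70.8 FPKM in Sch, and 8.45 and 7.26 FPKM in Fb, so DCSch was below both DC and Sch. Its difference from DC (-1.15, adjusted p = 0.0401) was lost without DCSch replicate 1, DCSch replicate 2 or DC replicate 1, at adjusted p of 0.166, 0.172 and 0.326. Jag1, a ligand, rose, with 4.15 and 5.19 FPKM in DCSch against 0.753 and 1.67 FPKM in DC and 14.6 and 14.2 FPKM in Sch.

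Among 18 FGF genes, the feedback inhibitors Spry1 and Spry4 fell and 0 rose by limma's test. At an unadjusted p under 0.05 with the required size of difference, 0 rose too. Spry4 lost its call without DCSch replicate 1 or DC replicate 2. Spry1 had 18.7 and 23.0 FPKM in DCSch, 115 and 66.6 FPKM in DC, 5.03 and 3.14 FPKM in Sch, and 27.7 and 14.7 FPKM in Fb. The ligand Fgf10 had 29.0 and 59.8 FPKM in DCSch against 69.1 and 116 FPKM in DC and was not called (-1.08, adjusted p = 0.181; 0.0110 with the replicate term). Of 12 hedgehog genes, Gli3 was called, while with the replicate term 2 were higher and Hhip, an inhibitor of the pathway, was lower. Hhip had 11.4 and 23.4 FPKM in DCSch against 29.1 and 44.5 FPKM in DC (-1.09, adjusted p = 0.0524; 0.0102 with the replicate term and 0.00880 without DCSch replicate 2). Gli3, mainly a repressor of the pathway, had 22.2 and 22.2 FPKM in DCSch, 6.95 and 8.09 FPKM in DC, 32.5 and 35.2 FPKM in Sch, and 27.4 and 30.1 FPKM in Fb (1.45, SE 0.18, adjusted p = 0.000473), so DC was the low fraction. Among 17 collagen genes, Col18a1 rose, a call lost without DCSch replicate 1, while Col23a1 and Col25a1 fell. Over all rows tested, 4.41% rose and 1.79% fell, so 1 call in an FGF, hedgehog or collagen list says little about the list. Col23a1 had 69.2 and 85.2 FPKM in DCSch against 263 and 203 FPKM in DC.

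How far each list had moved from DC towards Sch was described for single genes with a log2 difference of at least 2 between Sch and DC and a mean of at least 5 FPKM in the higher of them. For each DCSch library, a position of 0 is the DC mean and 1 the Sch mean, on the linear FPKM scale. The median glial gene stood at 0.297 and 0.242 (26 genes) and the median mitosis gene at 0.465 and 0.525 (33 genes). The median DNA replication gene stood at 0.595 and 0.428 (15 genes) and the median condensate gene at 0.700 and 0.600 (25 genes). Over all genes of this kind, those higher in Sch stood at 0.339 and 0.331 (595 genes) and those lower in Sch at 0.543 and 0.522 (502 genes). The distances were thus unequal between lists, with no test run on them, and the DC and Sch means are shared by all.

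Positions also varied within a list. Among condensate genes, Bmp3 stood at 0.978 and 0.889, Cxcr4 at 0.962 and 0.856, and Inhba at 0.922 and 0.848, close to Sch. Lef1 stood at 0.283 and 0.371 and Ptch1 at 0.203 and 0.429, closer to DC. Among glial genes, Fabp7 stood at 0.276 and 0.373 and Sox10 at 0.422 and 0.165, so the DCSch libraries did not order the genes alike. The 8 fibroblast genes with a position had medians of -0.025 and 0.1, at the DC end.

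**Figure D4:**
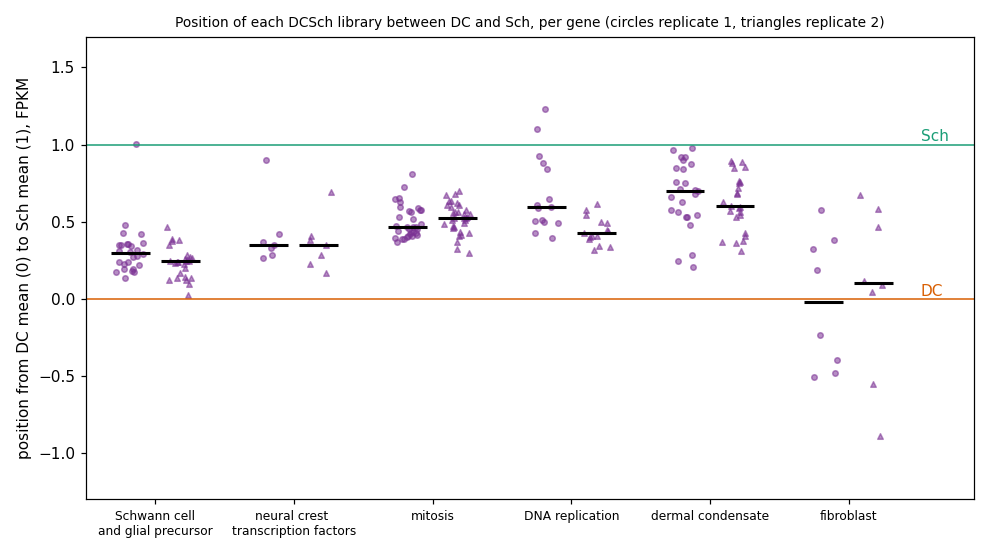
Position of each DCSch library between the DC mean (0) and the Sch mean (1) in FPKM, 1 point a gene, by gene list. Circles are DCSch replicate 1, triangles DCSch replicate 2 and black bars the medians. Glial genes have medians of 0.297 and 0.242, below those of mitosis genes (0.465 and 0.525) and condensate genes (0.700 and 0.600).

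Few markers of other cell types were called between DCSch and DC. Of 15 keratinocyte genes, limma called 0, and 0 passed at an unadjusted p under 0.05 with the required size, with a median log2 difference of 0.77 and 13 of 15 differences above 0, where 7020 of the 14171 rows tested were above 0. Both DCSch libraries exceeded both DC libraries in their summed FPKM, which came to 204 and 143 in DCSch, 102 and 94.2 in DC, 507 and 81.3 in Sch, and 166 and 138 in Fb. Krt5 had 20.3 and 14.8 FPKM in DCSch against 11.6 and 9.64 FPKM in DC, and 73.5 FPKM in Sch replicate 1. Of 14 melanocyte genes 0 were called, 0 also unadjusted with the required size. Their sums overlapped, at 89.9 and 114 in DCSch against 65.6 and 137 in DC. Dct, a melanin enzyme, had 8.65 and 4.42 FPKM in DCSch, 3.54 and 17.4 FPKM in DC, so DC replicate 2 stood apart from the other 3 libraries. The part of these RNAs in the results above was not tested.

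Of 12 endothelial genes 2 fell, Flt1 and Kdr, receptors for VEGF, where 1.79% of all rows fell. Flt1 had 1.18 and 1.83 FPKM in DCSch against 10.8 and 10.9 FPKM in DC. Kdr lost its call in each fit that left out 1 DCSch or DC library, at adjusted p of 0.0891 to 0.148. The endothelial sums overlapped, at 32.2 and 29.2 in DCSch against 33.8 and 47.2 in DC. Of 10 mural cell genes, Acta2 and Des rose, where 4.41% of all rows did. Des had 12.4 and 4.43 FPKM in DCSch against 0.771 and 1.31 FPKM in DC. Acta2 lost its call in each such fit, and Des without DCSch replicate 1 or DC replicate 1. No gene was called by limma among 10 macrophage, 9 erythroid, 5 mast cell and 9 skeletal muscle genes. At an unadjusted p under 0.05 with the required size, only 2 macrophage genes passed, 1 in each direction. Macrophage sums were 11.9 and 8.47 in DCSch against 7.45 and 6.36 in DC, with Tyrobp at 0 in both DCSch libraries. Of 15 immediate early and stress genes limma called 0, with 1 passing unadjusted with the required size. Replicate 1 exceeded replicate 2 in both fractions, with summed FPKM of 265 and 124 in DCSch against 211 and 94.7 in DC.

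Malat1, a long nuclear RNA, had 3231 and 5372 FPKM in DCSch, 2511 and 3551 FPKM in Sch, and 2101 and 3102 FPKM in Fb, and was listed at 0 in both DC libraries. Snora21, a small nucleolar RNA within the Rpl23 locus, had 75.6 and 83.8 FPKM in DCSch and was also listed at 0 in both DC libraries. An exact 0 for such abundant RNAs can be a failed estimate, so no fold is given. Of the 620 genes, 4 were listed at 0 in both DC libraries, and 605 had no exact 0 in any of the 4 libraries.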

How the data were processed

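RNA of 16 libraries, 8 sorted fractions of 2, was measured by sequencing amplified cDNA. The authors deposited 1 table of FPKM values. Per the submitters' processing notes, TopHat2 2.0.3, Bowtie2 and Cufflinks 2.1.1 were used on mm10, with no roles given; any further scaling of values across libraries is not stated, and FPKM of a library depends on what else it holds. Depth is not stated, so no counting interval is given. From steps of single fragments below 0.3 FPKM, DCSch had an estimated 1.25 times the depth of DC in replicate 1 and 0.821 times in replicate 2, from the 11.1% and 21.6% of low rows whose ratios clustered within 0.02 (log2). No other per-sample column was present (0).

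Values were moved to log2(FPKM + 1), which understates the change of low genes. The 14171 rows with at least 1 FPKM in 2 or more of the 16 libraries entered limma 3.58.1 (R 4.3.3) with 1 mean a fraction and a trended, robust spread, and p-values were adjusted by Benjamini-Hochberg over all rows. The steps were tested on simulated data. DCSch was compared with DC, and Sch with Fb. A gene above both needed DCSch higher than DC and than Sch. 27 gene lists with 447 entries were used. Genes were named by rule: the 12 largest increases and 12 largest decreases with at least 10 FPKM and no overlap, up to 5 called genes a list, 6 genes above both, fixed genes, and other list genes whose values are given; others are marked, and a few genes are not reported here. Members, lists and rules were chosen with earlier results of these data known. Rows that share a symbol (434) were tested but not named. In 21 of the 147 named genes the locus in the table also spans another protein-coding gene. Positions are 1-based on mm10, and strands come from GENCODE M21. Promoter windows are RefSeq's for GRCm38.p6. Same-numbered libraries deviated together in all 28 pairs of fractions (correlations 0.148 to 0.656), so the numbers were read as pairing the samples. The reported fit has no replicate term and so ignores this pairing. The fit with the term is the replicate block, which gave 731 higher and 329 lower genes. Genes given as not called are so by the fit without the term.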

Additional observations from a re-analysis of the deposited data

How the results depend on the processing

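Alternatives were a pseudocount of 0.1, no filter on low values, a filter on the 4 DCSch and DC libraries, libraries rescaled to the same total, quantile normalization, only the libraries compared, a replicate block, a spread with no trend, at least 20 FPKM for positions, each library left out in turn and, chosen after seeing the data, members with no exact 0. The median of all rows moved by at most 0.036 on the log2 scale. Counts of genes stayed within 1.5 times of the reported one except as follows. With a pseudocount of 0.1, the lower genes that passed neither test between Sch and Fb numbered 105 and the genes above both 4. The genes below both numbered 1 with the filter on 4 libraries and 1 after rescaling. With only the libraries compared, 2 genes were higher (0 over in Sch, 0 over in Fb, 2 in neither), 0 were lower (0, 0 and 0), and 0 lay above both; that fit has 2 residual degrees of freedom in place of 8. With the replicate block, which reads the numbers as pairing, the higher genes over in Fb numbered 50, the lower genes over in Sch 29, those above both 25 and those below both 4 (Anxa1, Crym, Heyl and Ncam2, named after their values were seen); all 620 and 254 calls were kept.

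With 1 library left out, counts ranged over 439 to 627 (higher), 133 to 250 (lower), 228 to 311, 20 to 35 and 182 to 290 (higher and over in Sch, over in Fb, or neither), 6 to 23, 26 to 69 and 101 to 177 (lower, likewise), 5 to 17 (above both) and 0 to 1 (below both). Median positions ranged over 0.242 to 0.315 for glial genes and 0.456 to 0.585 for mitosis genes, both past the spread of the DCSch libraries only without an Sch library. That spread comes from the medians of the same DCSch libraries. Leaving out a DCSch library could therefore not pass it, and those fits add no support. Where 1 library is left in a fraction, it is taken to vary like the others. Of 1763 values of 147 named genes, 1543 kept direction and call, 194 lost the call (110 of them with only the libraries compared), 18 gained it and 8 changed sign. The 8 belong to genes not called: without 1 library, Col1a1 (0.53) ranged over -0.10 to 1.15, Crabp1 (0.20) over -0.20 to 0.60, Twist2 (0.16) over -0.20 to 0.52, and Dct (-0.34) over -1.35 to 0.67. The causes were not tested. Unknown depth and 2 libraries a fraction limit what can be called.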
